A study of Mus musculus with 12 samples.

Results

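The receptors described here are 9 mouse genes through which blood progenitors sense the colony-stimulating factors and their relatives: Csf2ra, Csf2rb, Csf2rb2, Csf3r, Il3ra, Il5ra, Il6ra, Il6st and Epor. They were taken by symbol as a fixed list of receptors of the myeloid and erythroid lines, and all 9 were matched by Ensembl ID among the 38924 gene IDs of the deposited table. Their transcripts were measured by bulk RNA-seq in 12 libraries of progenitors sorted from the marrow of female C57Bl/6J mice, an inbred strain, with 4 libraries for each of 3 cell types and, by the sample titles, 2 of each type in each of 2 batches. Granulocyte-monocyte progenitors (GMP), which form neutrophils and monocytes, were gated as Lin- Sca1- cKit+ CD150- CD34+ FcgR+. Common lymphoid progenitors (CLP), which form mainly lymphocytes, were gated as Lin- Sca1lo cKitlo IL7Ra+ Flk2+. Lymphoid-primed multipotent progenitors (LMPP), which can still enter either branch, were gated as Lin- Sca1+ cKit+ CD150- CD34+ Flk2hi. The labels name no treatment or genetic change, all groups came from marrow depleted of cells with mature lineage proteins, and the sources used here do not give the age of the donors of the bulk libraries. The labels do not say whether libraries of a type are separate animals, so p-values measure the spread between samples, which may be technical.

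Cytokine receptors of this class have no kinase of their own. A ligand brings receptor chains together, the JAK kinases bound to the chains become active, and STAT factors then carry the signal to the nucleus. GM-CSF, IL-3 and IL-5 each bind a private alpha chain (Csf2ra, Il3ra or Il5ra) that pairs with the common beta chain Csf2rb, and the mouse has an additional beta chain, Csf2rb2, that serves IL-3. G-CSF, the factor that drives neutrophil production, acts through Csf3r, and erythropoietin through Epor, each as a homodimer. IL-6 binds Il6ra, and the complex signals through Il6st (gp130), which other cytokines of the IL-6 family also use.

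A shared letter pattern marks this receptor class: the codons for tryptophan, serine, any residue, tryptophan and serine in the extracellular part. The pattern was searched in coding sequence (GENCODE M21, mouse build GRCm38, the same as mm10). It stood in 6 of the 9 receptors and in 74 of 21561 genes with a complete coding transcript, or 0.343%. Each receptor was searched in its longest coding transcript, while a gene of the 21561 counted if any complete coding transcript held the pattern. The sequences below are shown because they are the family signature and because they show how close the beta chain genes are; the capitals mark the 5 codons of the pattern, and each run has 3 more codons on either side.
Csf2rb, codons 428 to 432: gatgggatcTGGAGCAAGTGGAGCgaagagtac
Csf2rb2, codons 427 to 431: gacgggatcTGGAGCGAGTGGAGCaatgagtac
Csf3r, codons 319 to 323: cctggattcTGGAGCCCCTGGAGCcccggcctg
Il6ra, codons 300 to 304: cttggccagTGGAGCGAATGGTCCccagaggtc
Il6st, codons 308 to 312: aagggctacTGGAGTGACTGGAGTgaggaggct
Epor, codons 232 to 236: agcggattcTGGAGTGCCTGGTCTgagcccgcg
In Csf2ra, Il3ra and Il5ra, the 3 alpha chains of the beta-chain cytokines, these letters were not found in the transcript searched.

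The beta chain genes are near copies, which bears on how far their values can be separated. Csf2rb (ENSMUSG00000071713, chr15:78325752-78353847, plus strand) and Csf2rb2 (ENSMUSG00000071714, chr15:78282507-78305721, minus strand) lie next to one another on chromosome 15. Their coding sequences of 2688 and 2634 bases align over 2628 bases with 95.2% identity, and the longest identical run is 242 bases. Of all 50-base windows of their transcripts, 17.1% of those of Csf2rb and 19.2% of those of Csf2rb2 occur in another gene, mainly in one another. The 120-base stretch that ends in the signature differs at 10 bases, shown in capitals.
Csf2rb, coding bases 1177 to 1296: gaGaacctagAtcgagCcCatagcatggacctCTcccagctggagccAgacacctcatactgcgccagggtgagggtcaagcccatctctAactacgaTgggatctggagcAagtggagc
Csf2rb2, coding bases 1174 to 1293: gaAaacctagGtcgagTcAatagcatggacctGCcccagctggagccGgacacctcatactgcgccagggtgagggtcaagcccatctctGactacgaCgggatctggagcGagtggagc
RSEM, named in the submitters' processing notes, divides reads with several matching transcripts among them by estimate, so the split between these genes is less certain than their sum. In Csf3r, 11.1% of windows were shared with another annotated gene, AC105061.2, and in Il5ra 0.899%. No window was shared in Csf2ra, Il3ra, Il6ra, Il6st or Epor.

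Values are TPM, transcript abundances that are corrected for transcript length and relative to the library's total, so the reads behind a value are unknown and no counting interval can be given. In bulk samples, fewer cells of a type and less RNA per cell cannot be told apart. The libraries carried the markers of their labels: the sum of 8 granulocyte-monocyte progenitor markers was 2.127e+04 to 2.657e+04 TPM in GMP, 173.6 to 2155 in CLP and 1126 to 1733 TPM in LMPP, and the sum of 7 lymphoid progenitor markers was 1.37 to 6.24 TPM in GMP, 1706 to 2344 in CLP and 509.1 to 761.9 TPM in LMPP. Some libraries stood apart. A haemoglobin-rich pair, CLP batch 2 replicate 1 and LMPP batch 2 replicate 1, held 1.362e+04 and 2.857e+04 TPM of 10 erythroid markers, against 41.18 to 2479 TPM in the other 10 libraries. Both CLP libraries of batch 2 listed Flt3, the gene of the gate protein Flk2, at 8.91 and 16.98 TPM, against 138.28 and 146.13 TPM in the CLP libraries of batch 1, and their 6 B cell markers summed to 3469 and 4314 TPM, against 623 and 25.42 TPM in batch 1. Differences between types were also fitted without the haemoglobin-rich pair and without both CLP libraries of batch 2. For the called receptors these values stand beside the result, and for other genes where they end a call or move a value by over 1.5 times. The exceptions are Csf2ra and Csf2rb in GMP against LMPP, whose values without both CLP libraries of batch 2 are not printed.

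Csf3r and Csf2rb had the highest medians of the receptors in GMP, Csf3r in LMPP, and Il6st in CLP. By median TPM per gene, the order in GMP was Csf3r (57.18), Csf2rb (44.31), Il6st (29.71), Csf2ra (25.56), Il6ra (16.41), Il3ra (5.72), Csf2rb2 (4.02), Il5ra (0.26) and Epor (0.15). In CLP it was Il6st (36.23), Csf2rb (11.36), Csf2ra (10.51), Csf3r (7.02), Il6ra (5.15), Csf2rb2 (3.54) and Il3ra (2.17), with Il5ra and Epor at a median of 0. In LMPP it was Csf3r (64.62), Il6st (28.62), Csf2rb (18.19), Csf2ra (10.24), Il6ra (10.07), Il3ra (3.18), Csf2rb2 (2.55), Epor (0.48) and Il5ra (0.04). Most neighbours in these orders had overlapping libraries. The steps without overlap were Il6ra above Il3ra and Csf2rb2 above Il5ra in GMP, and Csf3r above Il6st and Il6ra above Il3ra in LMPP. In CLP every neighbouring pair overlapped. The CLP median of Il6st falls between its batches, at 18.61 and 12.24 TPM in batch 2 and 53.86 and 59.70 TPM in batch 1. In CLP batch 2 replicate 1, Csf3r (29.50 TPM) and Csf2rb (19.23 TPM) were above Il6st (18.61 TPM).

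**Figure D1:**
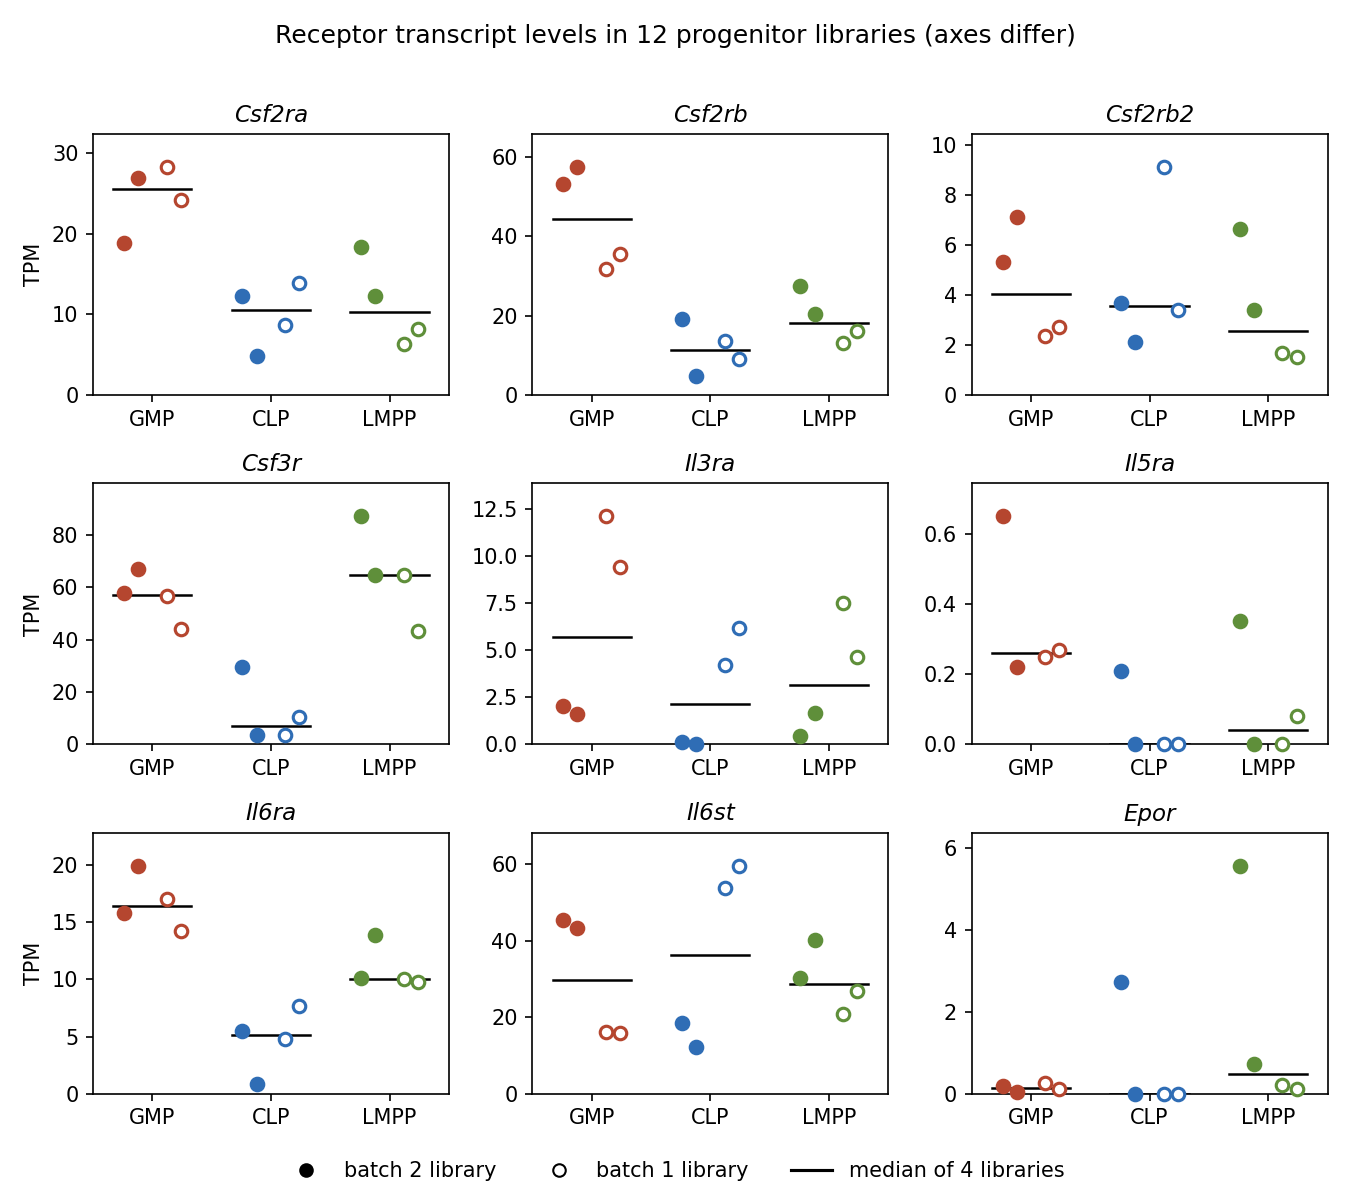
TPM (y axis, one scale per gene) of the 9 receptor genes in the 4 libraries of GMP, CLP and LMPP; filled points are batch 2, open points batch 1, and lines are medians. Csf2ra and Csf2rb are highest in GMP, Csf3r is lowest in CLP, and Il3ra and Il6st separate by batch within each type.

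Together the 9 genes summed to 146.2 to 223.7 TPM in GMP, 28.45 to 110.2 in CLP and 110.7 to 186.3 TPM in LMPP. No CLP library reached the lowest library of the other types, but the highest CLP and the lowest LMPP library were nearly equal. Csf3r made up 29 to 34.3% of that sum in GMP, 3.72 to 32.1% in CLP and 39.2 to 51.9% in LMPP. Il6st made up 9.81 to 22.8% in GMP, 20.3 to 54.9% in CLP and 16.3 to 25.5% in LMPP. Among CLP, the haemoglobin-rich library (batch 2 replicate 1) had the highest share of Csf3r and the lowest of Il6st.

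**Figure D2:**
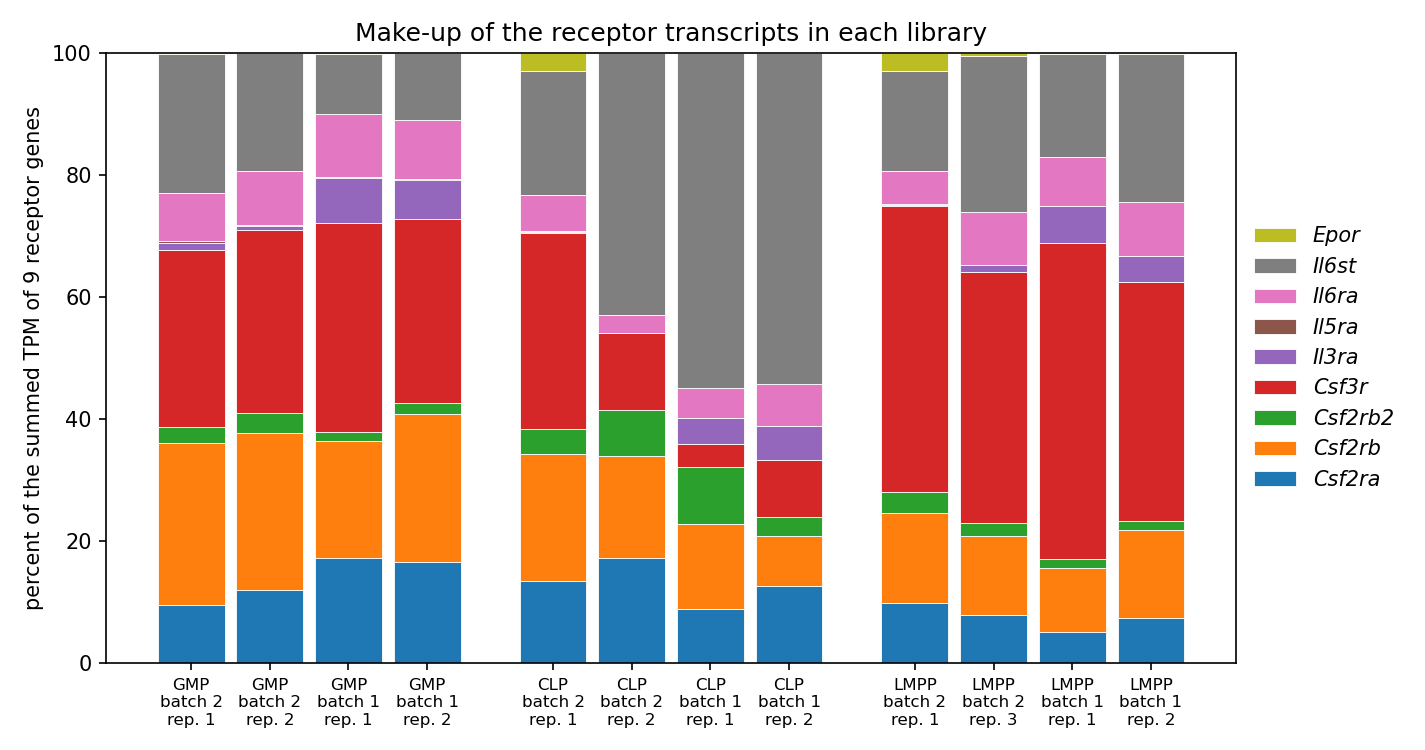
Percent of the summed TPM of the 9 receptor genes (y axis) taken by each gene in each of the 12 libraries (bars). Csf3r takes 39.2 to 51.9% in LMPP libraries, and Il6st takes 43 to 54.9% in the 3 CLP libraries other than batch 2 replicate 1.

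Differences between types were fitted with limma on log2(TPM + 1) over the 12718 genes that reached 1 TPM in 4 or more libraries, with batch as a term, and calls were made where the adjusted p was under 0.05. Fold changes are on that scale and understate changes of low genes. The filter kept 7 of the 9 receptors; Il5ra and Epor did not pass it. In GMP against LMPP, 2 of the 7 tested receptors were called higher and 0 lower, beside 7.62% of all genes called higher and 21.3% called lower. In CLP against LMPP, 0 were called higher and 1 lower, beside 2.8% and 7.23% of all genes. In GMP against CLP, 5 were called higher and 0 lower, beside 9.96% and 13.9% of all genes. The median log2 difference of the 7 was 0.57, -0.54 and 1.30 in these comparisons, beside -0.24, -0.17 and -0.09 for all genes. The 3 comparisons share libraries, so their counts are not independent of one another. The balance of all-gene calls moves with the scaling: scaled by median ratios, GMP against LMPP had 1869 genes called higher and 1717 lower, beside 969 and 2707 on TPM as deposited, and 3, 1 and 5 receptors called.

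**Figure D3:**
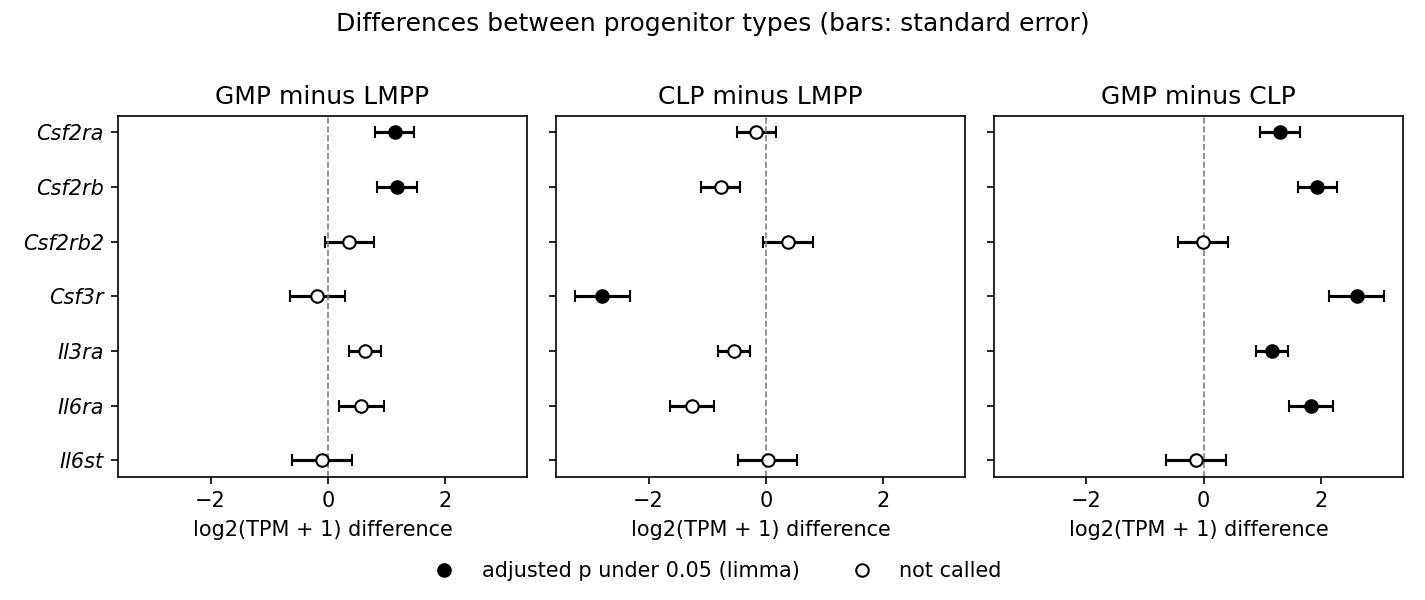
Log2(TPM + 1) differences (x axis, points) with standard errors (bars) of the 7 tested receptors for GMP minus LMPP, CLP minus LMPP and GMP minus CLP; filled points were called by limma at an adjusted p under 0.05. The 5 calls of GMP minus CLP lie between 1.17 and 2.61.

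The GM-CSF receptor rose in GMP in both of its chains. Csf2ra (ENSMUSG00000059326, chr19:61223957-61228429, minus strand), the alpha chain that binds GM-CSF, had 18.88 and 26.93 TPM in batch 2 and 28.36 and 24.19 TPM in batch 1 of GMP. It had 12.32 and 4.88 TPM in batch 2 and 8.70 and 13.86 TPM in batch 1 of CLP, and 18.35 and 12.30 TPM in batch 2 and 6.37 and 8.18 TPM in batch 1 of LMPP. Every GMP library was above every library of the other types, though by little in batch 2, where the lowest GMP and the highest LMPP library stood at 18.88 and 18.35 TPM. Csf2ra averaged 24.6 ± 4.18 TPM in GMP, 9.94 ± 4.01 TPM in CLP and 11.3 ± 5.31 TPM in LMPP (SD, n = 4 each). The log2 difference was 1.14 ± 0.337 (SE) in GMP against LMPP (adjusted p = 0.0245, limma), 1.30 ± 0.337 in GMP against CLP (adjusted p = 0.0151) and -0.16 in CLP against LMPP (adjusted p = 0.803). The first call is near the threshold: it was lost with no filter on genes and in batch 2 alone (0.55, adjusted p = 0.463). It was also lost in 5 of the 12 fits that left out a library, with adjusted p-values up to 0.0816. The LMPP library at 18.35 TPM is the haemoglobin-rich one, and the difference was 1.40 without it (adjusted p = 0.0108) and 1.42 without the haemoglobin-rich pair (adjusted p = 0.0098). The call against CLP was lost in batch 2 alone (1.41, adjusted p = 0.1) and without both CLP libraries of batch 2 (0.89, adjusted p = 0.0879), and held without the haemoglobin-rich pair (1.45, adjusted p = 0.00929).

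Csf2rb, the beta chain that GM-CSF, IL-3 and IL-5 share, had 53.14 and 57.61 TPM in batch 2 and 31.74 and 35.48 TPM in batch 1 of GMP. It had 19.23 and 4.80 TPM in batch 2 and 13.69 and 9.04 TPM in batch 1 of CLP, and 27.37 and 20.34 TPM in batch 2 and 13.04 and 16.03 TPM in batch 1 of LMPP. Here too all GMP libraries were above all others, while CLP and LMPP overlapped. The mean was 44.5 ± 12.8 TPM in GMP, 11.7 ± 6.2 TPM in CLP and 19.2 ± 6.22 TPM in LMPP (SD, n = 4 each). Csf2rb rose by 1.18 ± 0.336 (log2, SE) in GMP against LMPP (adjusted p = 0.0207, limma) and by 1.94 ± 0.336 in GMP against CLP (adjusted p = 0.00145), and its difference of -0.77 in CLP against LMPP was not called (adjusted p = 0.168). The call against LMPP was lost in batch 2 alone at an almost equal size (1.19, adjusted p = 0.222) and in 4 of the 12 fits without a library, with adjusted p-values up to 0.0626. The call against CLP held without both CLP libraries of batch 2 (1.52, adjusted p = 0.000453). Without the haemoglobin-rich pair both calls held, at 1.34 against LMPP (adjusted p = 0.0153) and 2.19 against CLP (adjusted p = 0.00129).

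Csf2rb2, the mouse beta chain for IL-3, was low and did not follow its neighbour. It had 5.32 and 7.09 TPM in batch 2 and 2.34 and 2.71 TPM in batch 1 of GMP. It had 3.69 and 2.13 TPM in batch 2 and 9.12 and 3.40 TPM in batch 1 of CLP, and 6.62 and 3.41 TPM in batch 2 and 1.69 and 1.53 TPM in batch 1 of LMPP. All types overlapped, and the highest value was that of CLP batch 1 replicate 1. The log2 differences of 0.37 in GMP against LMPP, 0.38 in CLP against LMPP and -0.01 in GMP against CLP were not called (adjusted p = 0.545, 0.601 and 0.99, limma); the sign of the last turned with the scaling, to 0.05 by median ratios. Without both CLP libraries of batch 2, Csf2rb2 differed by 1.32 in CLP against LMPP (adjusted p = 0.0549) and by -0.96 in GMP against CLP (adjusted p = 0.0796). Its part of the summed beta chain TPM was 6.87 to 11% in GMP, 16.1 to 40% in CLP and 8.71 to 19.5% in LMPP. GMP and CLP did not overlap in this share, LMPP overlapped each of them, and the share rests on the uncertain division of reads between the copies. With the genes summed, which that division does not affect, the log2 difference was 1.10 in GMP against LMPP (adjusted p = 0.0336, limma), -0.51 in CLP against LMPP (adjusted p = 0.371) and 1.62 in GMP against CLP (adjusted p = 0.00566).

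Csf2rb had 1.12 to 2.81 times the TPM of Csf2ra in GMP, 0.652 to 1.57 times in CLP and 1.49 to 2.05 times in LMPP. These ranges overlap between all types.

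Il3ra (ENSMUSG00000068758, chr14:14346275-14356011, plus strand), the alpha chain for IL-3, separated by batch more than by type. It had 2.03 and 1.59 TPM in batch 2 and 12.13 and 9.41 TPM in batch 1 of GMP. It was listed at 0.13 and 0.00 TPM in batch 2 and had 4.21 and 6.18 TPM in batch 1 of CLP, and it had 0.44 and 1.69 TPM in batch 2 and 7.50 and 4.67 TPM in batch 1 of LMPP. No batch 2 library of any type reached the lowest batch 1 library. Il3ra was lower by 2.13 (log2 difference -2.13 ± 0.222, adjusted p = 6.4e-05, limma) in batch 2 than in batch 1, a comparison in which 24.6% of all genes were called and Il3ra was 1 of 7 receptors called. Within types the batch difference was -2.06 in GMP (adjusted p = 0.0104), -2.52 in CLP (adjusted p = 0.000865) and -1.82 in LMPP (adjusted p = 0.0247).

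Between types, Il3ra rose by 1.17 ± 0.272 (log2, SE) in GMP against CLP (adjusted p = 0.00862, limma). It was higher in every GMP library than in the CLP libraries of the same batch, although the pooled ranges of 1.59 to 12.13 TPM in GMP and 0.00 to 6.18 TPM in CLP overlap. The call was lost in batch 2 alone (1.40, adjusted p = 0.0699), in batch 1 alone (0.93, adjusted p = 0.0558), without both CLP libraries of batch 2 (0.87, adjusted p = 0.0728) and without the batch term (adjusted p = 0.347), and held without the haemoglobin-rich pair (1.11, adjusted p = 0.0216). Its 0.63 in GMP against LMPP was not called (adjusted p = 0.101) but was with median-ratio scaling (0.83, adjusted p = 0.0368) and quantile normalization (1.13, adjusted p = 0.00634). Its -0.54 in CLP against LMPP was not called (adjusted p = 0.231).

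Il5ra (ENSMUSG00000005364, chr6:106710357-106749037, minus strand), the alpha chain for IL-5, a factor of eosinophils, was at or near 0. It was listed at 0.65 and 0.22 TPM in batch 2 and 0.25 and 0.27 TPM in batch 1 of GMP. In CLP it was listed at 0.21 TPM in batch 2 replicate 1 and at 0 in the other 3 libraries, and in LMPP at 0.35 and 0.00 TPM in batch 2 and 0.00 and 0.08 TPM in batch 1. It reached 1 TPM in 0 of the 12 libraries and had a value above 0 in all 4 GMP libraries. Fitted with no filter over 21797 genes, its log2 difference of 0.35 in GMP against CLP was not called (adjusted p = 0.0794, limma), nor was 0.28 in GMP against LMPP (adjusted p = 0.13) or -0.07 in CLP against LMPP (adjusted p = 0.775). The sum of 6 eosinophil markers was 94.26 to 719.1 TPM in GMP, 1.41 to 789.8 in CLP and 2.25 to 1456 TPM in LMPP, highest within each type in the library that was highest in Il5ra for that type. The part of these cells in the Il5ra values was not tested.

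Csf3r (ENSMUSG00000028859, chr4:126024550-126044440, plus strand), the receptor for G-CSF, was abundant in GMP and LMPP alike and low in CLP. It had 57.89 and 67.01 TPM in batch 2 and 56.47 and 43.91 TPM in batch 1 of GMP. It had 29.50 and 3.57 TPM in batch 2 and 3.65 and 10.38 TPM in batch 1 of CLP, and 87.13 and 64.72 TPM in batch 2 and 64.53 and 43.40 TPM in batch 1 of LMPP. No CLP library reached the lowest library of the other types, and GMP and LMPP overlapped over most of their range. Csf3r averaged 56.3 ± 9.5 TPM in GMP, 11.8 ± 12.2 TPM in CLP and 64.9 ± 17.9 TPM in LMPP (SD, n = 4 each).

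Csf3r fell in CLP against LMPP (log2 difference -2.79 ± 0.466, SE; adjusted p = 0.00401, limma) and rose in GMP against CLP (2.61 ± 0.466, adjusted p = 0.00176). Between GMP and LMPP its difference of -0.18 was not called (adjusted p = 0.802) and turned to 0.09 with median-ratio scaling. Both calls held in each of the 12 fits that left out a library, with adjusted p-values up to 0.0179; in batch 2 alone they were lost at a similar size (-2.69 and 2.42, adjusted p = 0.0986 and 0.112). The CLP library with the highest Csf3r, batch 2 replicate 1, was also the CLP library with the highest sum of 11 mature neutrophil markers, 1.211e+04 TPM against 14.78 to 1968 TPM in the other 3. Among LMPP the library with the highest Csf3r likewise had the highest neutrophil sum, 2.624e+04 TPM against 34.85 to 1806 TPM. GMP had a neutrophil sum of 60.42 to 1466 TPM with Ly6g listed at 0 in all 4 libraries. Without that haemoglobin-rich pair, the Csf3r difference was -3.21 in CLP against LMPP (adjusted p = 0.000971, limma) and 3.18 in GMP against CLP (adjusted p = 0.000117), so both differences were larger without these libraries. Without both CLP libraries of batch 2 they were -2.94 (adjusted p = 0.000916, limma) and 2.76 (adjusted p = 0.000224). The part of mature neutrophils in the Csf3r values was not tested.

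The IL-6 receptor pair divided. Il6ra (ENSMUSG00000027947, chr3:89864059-89913196, minus strand), the chain that binds IL-6, had 15.82 and 19.91 TPM in batch 2 and 17.00 and 14.19 TPM in batch 1 of GMP. It had 5.47 and 0.83 TPM in batch 2 and 4.83 and 7.63 TPM in batch 1 of CLP, and 10.15 and 13.87 TPM in batch 2 and 9.98 and 9.79 TPM in batch 1 of LMPP. The 3 types did not overlap at any step, with GMP highest, LMPP between and CLP lowest. The mean was 16.7 ± 2.41 TPM in GMP, 4.69 ± 2.84 TPM in CLP and 10.9 ± 1.95 TPM in LMPP (SD, n = 4 each).

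Of these steps only GMP against CLP was called for Il6ra, at 1.83 ± 0.381 (log2, SE; adjusted p = 0.00442, limma). The difference of -1.26 ± 0.381 in CLP against LMPP fell short (adjusted p = 0.0557), as did 0.57 in GMP against LMPP (adjusted p = 0.279). Much of the spread came from CLP batch 2 replicate 2, at 0.83 TPM: without it, CLP against LMPP was called at a smaller size (-0.76, adjusted p = 0.0406) and so was GMP against LMPP (0.57, adjusted p = 0.0289). Fitted on GMP and LMPP libraries alone, GMP against LMPP had an adjusted p of 0.0145. The call of GMP against CLP was lost in batch 2 alone (2.45, adjusted p = 0.0533) and held at a smaller size without both CLP libraries of batch 2 (1.21, adjusted p = 0.00329), a fit in which GMP against LMPP was called (0.57, adjusted p = 0.0209). Without the haemoglobin-rich pair GMP against CLP was 2.02 (adjusted p = 0.00757).

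Il6st (ENSMUSG00000021756, chr13:112464070-112510086, plus strand), the signalling chain gp130, was expressed in every library and moved in opposite directions between batches in GMP and CLP. It had 45.57 and 43.26 TPM in batch 2 and 16.16 and 15.88 TPM in batch 1 of GMP. It had 18.61 and 12.24 TPM in batch 2 and 53.86 and 59.70 TPM in batch 1 of CLP, and 30.32 and 40.13 TPM in batch 2 and 20.90 and 26.92 TPM in batch 1 of LMPP. In GMP and CLP the libraries of a batch were closer to one another than to the other batch, and across batches the order of these types turned round: GMP above CLP in batch 2, CLP above GMP in batch 1. Batch 2 exceeded batch 1 by 1.42 ± 0.224 in GMP (log2, SE; adjusted p = 0.00615, limma) and by 0.54 in LMPP, which was not called (adjusted p = 0.201), and in CLP the difference was -1.84 ± 0.224 (adjusted p = 0.000322). With Il3ra, this makes 2 of 7 receptors called between batches in GMP, beside 8.22% of all genes, 2 of 7 in CLP, beside 32% of all genes, and 1 of 7 in LMPP, beside 4.61%.

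Because of this, the type differences of Il6st averaged over batches were close to 0 and were not called: -0.10 in GMP against LMPP, 0.03 in CLP against LMPP and -0.13 in GMP against CLP (adjusted p = 0.899, 0.977 and 0.876, limma). In batch 2 alone, GMP against CLP was 1.49 (adjusted p = 0.0209) and CLP against LMPP -1.16 (adjusted p = 0.0497); in batch 1 alone they were -1.76 (adjusted p = 0.000671) and 1.22 (adjusted p = 0.0116). Without both CLP libraries of batch 2, GMP against CLP was -1.54 (adjusted p = 0.00127) and CLP against LMPP 1.44 (adjusted p = 0.00768). The change of the type difference from batch to batch was itself called for Il6st, at 3.26 ± 0.317 for GMP against CLP (log2, batch 2 minus batch 1; adjusted p = 0.00062, limma) and -2.38 ± 0.317 for CLP against LMPP (adjusted p = 0.00401). It was 0.88 for GMP against LMPP and not called (adjusted p = 0.419). Il6st was the 1 receptor of 7 called in such a test, beside 5.48% of all genes for GMP against CLP and 8.58% for CLP against LMPP; for GMP against LMPP 0 of 7 were, beside 0.0157%. The CLP libraries low in Il6st were the pair with low Flt3 and high B cell markers, and the GMP libraries of batch 2 were not marked in this way, with B cell sums of 33.55 and 43.21 TPM beside 41.03 and 35.21 TPM in batch 1. Other marker sums did differ between the GMP batches. The 6 eosinophil markers summed to 719.1 and 557 TPM in batch 2 of GMP, against 94.26 and 106.4 TPM in batch 1, the 8 monocyte and macrophage markers to 379 and 404 TPM, against 161.8 and 178.6 TPM, and the 6 mast cell and basophil markers to 370.1 and 319 TPM, against 103 and 131.6 TPM. The 11 neutrophil markers summed to 60.42 and 327.3 TPM in batch 2 of GMP, against 1241 and 1466 TPM in batch 1, and the 10 erythroid markers to 46.89 and 188.3 TPM, against 1138 and 1295 TPM. The part of other cells or of handling in these differences was not tested.

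**Figure D4:**
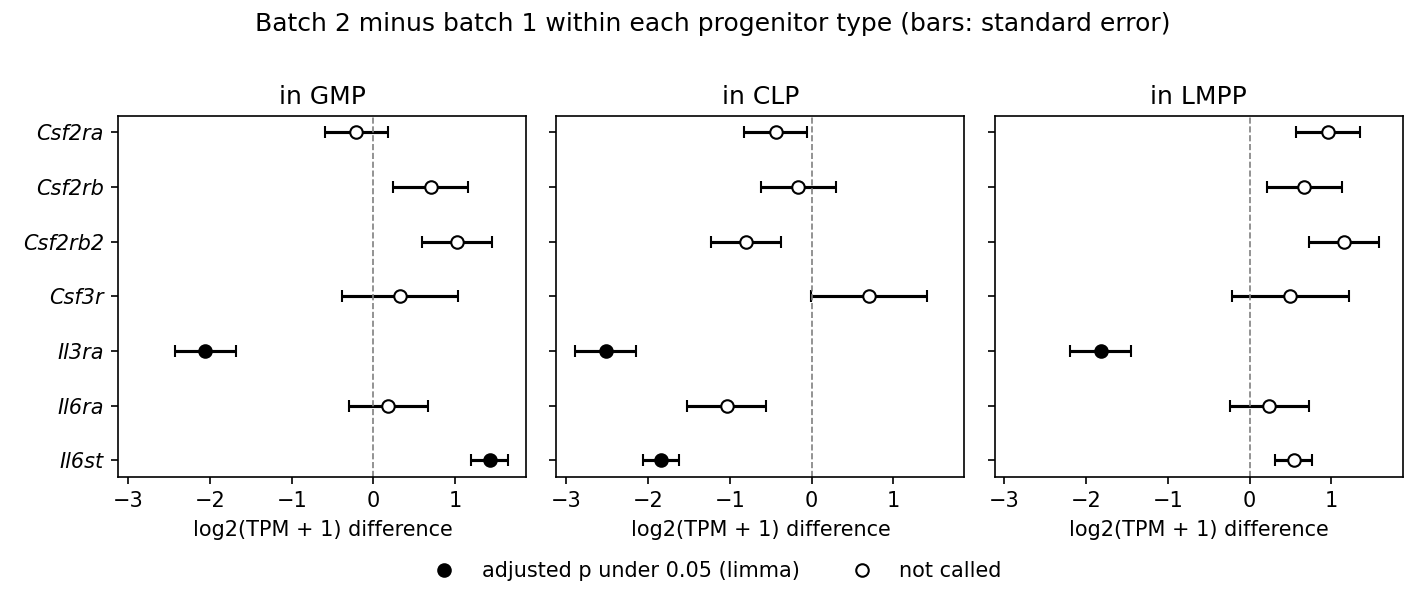
Log2(TPM + 1) difference of batch 2 minus batch 1 (x axis, points) with standard errors (bars) of the 7 tested receptors within GMP, CLP and LMPP; filled points were called by limma. Il3ra lies between -2.52 and -1.82 in all types, and Il6st at 1.42 in GMP, -1.84 in CLP and 0.54 in LMPP.

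Il6st had 0.951 to 2.88 times the TPM of Il6ra in GMP, 3.4 to 14.7 times in CLP and 2.09 to 2.99 times in LMPP. Every CLP library was above every library of the other types in this ratio, in either batch, and GMP and LMPP overlapped.

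Epor (ENSMUSG00000006235, chr9:21958897-21963506, minus strand), the erythropoietin receptor, was near 0 apart from the haemoglobin-rich pair. It was listed at 0.20 and 0.05 TPM in batch 2 and 0.27 and 0.11 TPM in batch 1 of GMP. In CLP it was listed at 2.73 TPM in batch 2 replicate 1 and at 0 in the other 3 libraries. In LMPP it had 5.58 TPM in batch 2 replicate 1 and 0.74 TPM in batch 2 replicate 3, and 0.23 and 0.12 TPM in batch 1. The 2 libraries above 1 TPM were the same pair that had 1.362e+04 and 2.857e+04 TPM of erythroid markers. With no filter, the log2 differences of -0.79 in GMP against LMPP, -0.52 in CLP against LMPP and -0.27 in GMP against CLP were not called (adjusted p = 0.352, 0.59 and 0.824, limma). The part of erythroid cells in the Epor values was not tested.

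**Figure D5:**
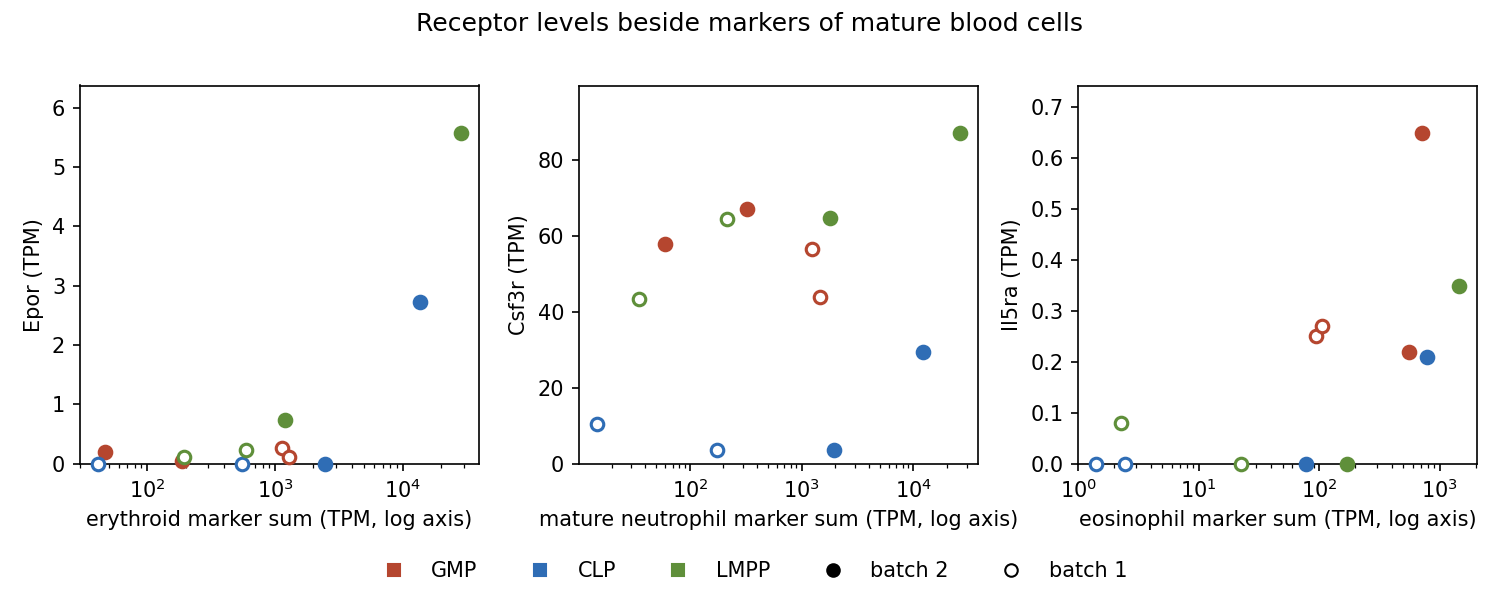
TPM (y axis) of Epor, Csf3r and Il5ra in the 12 libraries against the summed TPM of erythroid, mature neutrophil and eosinophil markers (x axes, log scale); colours are GMP, CLP and LMPP, filled points batch 2. Epor passes 1 TPM in the 2 libraries with erythroid sums of 1.362e+04 and 2.857e+04 TPM and in no other, and Csf3r is 43.40 TPM or more in GMP and LMPP over the whole range of neutrophil sums.

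Promoters are shown for the receptors with a RefSeq entry that were called higher in GMP than in CLP and hold the letters GAGGAA, and for Il6st, which was not called; they were chosen after the values were seen. RefSeq promoters (GRCm38.p6, 250 bases before to 50 after the start) matched 8 of the 9 receptors. Motifs were searched on both strands: GAGGAA, the core bound by the ETS factor PU.1 (Spi1), TTGCNNAA for C/EBP factors, AGATAA for GATA factors and TTCNNNGAA for STAT factors. Capitals mark matches to any of these; a match on the opposite strand reads TTCCTC or TTATCT.
Csf2ra, chr19:61228369-61228668, minus strand: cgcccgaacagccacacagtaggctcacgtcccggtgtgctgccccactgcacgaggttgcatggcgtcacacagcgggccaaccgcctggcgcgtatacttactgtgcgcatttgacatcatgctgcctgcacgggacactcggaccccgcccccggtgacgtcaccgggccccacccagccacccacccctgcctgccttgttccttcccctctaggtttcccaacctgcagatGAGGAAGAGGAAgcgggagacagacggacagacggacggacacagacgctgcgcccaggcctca
Csf3r, chr4:126024409-126024708, plus strand: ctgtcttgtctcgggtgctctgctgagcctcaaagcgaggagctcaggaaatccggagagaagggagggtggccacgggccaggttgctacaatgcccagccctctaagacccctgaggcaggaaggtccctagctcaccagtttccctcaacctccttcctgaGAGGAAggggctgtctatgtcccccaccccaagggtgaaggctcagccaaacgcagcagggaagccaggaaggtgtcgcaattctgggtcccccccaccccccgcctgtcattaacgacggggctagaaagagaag
Il6ra, chr3:89913147-89913446, minus strand: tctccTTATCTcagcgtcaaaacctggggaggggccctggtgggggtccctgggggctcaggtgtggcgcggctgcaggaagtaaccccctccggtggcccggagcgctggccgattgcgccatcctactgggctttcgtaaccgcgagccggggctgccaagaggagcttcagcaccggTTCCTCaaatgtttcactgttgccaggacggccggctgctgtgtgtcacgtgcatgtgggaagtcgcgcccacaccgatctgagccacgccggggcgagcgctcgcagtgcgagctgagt
Il6st, chr13:112463820-112464119, plus strand: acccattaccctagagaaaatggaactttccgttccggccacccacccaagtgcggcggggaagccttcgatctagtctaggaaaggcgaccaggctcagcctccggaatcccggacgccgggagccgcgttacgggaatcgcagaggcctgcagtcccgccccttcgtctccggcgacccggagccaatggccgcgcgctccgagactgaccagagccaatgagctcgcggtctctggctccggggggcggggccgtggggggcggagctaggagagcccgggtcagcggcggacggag
GAGGAA stood in 5 of the 8 receptor promoters (Csf2ra, Csf2rb2, Csf3r, Il5ra and Il6ra), beside 28.3% of 32851 promoters. In Csf2ra it occurs as a pair of adjoining copies that begin 14 and 8 bases before the start, in Csf3r 86 bases before it, and in Il6ra, on the opposite strand, 70 bases before it. Of the receptors called higher in GMP than in CLP, Csf2ra, Csf3r and Il6ra held these letters and Il3ra lacked them. Csf2rb, also called, had no RefSeq promoter. Of those tested and not called, Csf2rb2 held the letters and Il6st lacked them. Whether the letters go with the calls was not tested. TTGCNNAA stood in 1 of 8 (Il3ra) beside 10.8% of promoters, AGATAA in 3 of 8 (Epor, Il5ra and Il6ra) beside 11.2%, and TTCNNNGAA in 1 of 8 (Csf2rb2) beside 8.3%. In Epor the GATA letters lie on the opposite strand 54 bases before the start. A match describes the letters of these windows and is not evidence of binding.

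Genes that act with the receptors were counted in 8 lists. Each count is to be read beside the calls over all genes, which were 7.62% higher and 21.3% lower in GMP against LMPP, 2.8% and 7.23% in CLP against LMPP, and 9.96% and 13.9% in GMP against CLP. The medians stand beside -0.24, -0.17 and -0.09 for all genes in the same order. The lists were also counted with median-ratio scaling, where 14.7% and 13.5%, 4.73% and 4.4%, and 13.4% and 12% of all genes were called higher and lower in these comparisons. Without both CLP libraries of batch 2 the shares were 11.6% and 30.1%, 1.93% and 5.13%, and 11.4% and 14.2%. Without the haemoglobin-rich pair they were 7.39% and 20.3%, 1.34% and 5.83%, and 11.4% and 13.2%. These repeats were chosen after seeing the data. The log2 differences of single genes printed below kept their sign in all of these fits.

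Of 15 transcription factors known to act on receptor promoters, 13 were tested; the list holds C/EBP, GATA and ETS factors and others, and no STAT factor. In GMP against LMPP 5 rose (Spi1, Cebpa, Cebpd, Cebpe and Myb) and 2 fell (Tal1 and Ets1), in CLP against LMPP 1 rose (Ets1) and 3 fell (Cebpa, Gata2 and Tal1), and in GMP against CLP 8 rose and 1 fell (Ets1). The list's median log2 difference was 0.50, -0.41 and 0.78 in these comparisons. With median-ratio scaling 8 rose and 2 fell in GMP against LMPP, and in CLP against LMPP 2 rose and 5 fell without both CLP libraries of batch 2. Cebpe, which acts late in granulocyte formation, averaged 23.7 ± 4.6 TPM in GMP, against 3.58 ± 5.64 TPM in LMPP (SD, n = 4 each; log2 difference 3.13, adjusted p = 0.00214, limma), and was 3.53 higher in GMP than in CLP (adjusted p = 0.00103). Its LMPP mean rests on the haemoglobin-rich library, at 11.98 TPM, with 0.18 to 1.65 TPM in the other 3, and without the haemoglobin-rich pair the difference in GMP against LMPP was 3.77 (adjusted p = 0.000152). Cebpa, the factor required to form GMP, averaged 28.8 ± 8.18 TPM in GMP, 2.25 ± 2.36 TPM in CLP and 9.33 ± 1.7 TPM in LMPP; it rose by 3.42 in GMP against CLP (adjusted p = 0.000128, limma) and its difference was -1.93 in CLP against LMPP (adjusted p = 0.0135). Cebpd rose by 1.52 in GMP against LMPP, and Gata2 had a difference of -2.37 in CLP against LMPP. Ets1, an ETS factor of lymphocytes, averaged 2.83 ± 0.217 TPM in GMP, 43 ± 29.9 TPM in CLP and 9.71 ± 4.53 TPM in LMPP, with 59.78 and 76.39 TPM in batch 2 and 21.75 and 14.14 TPM in batch 1 of CLP. Its difference in CLP against LMPP was 1.83 (adjusted p = 0.00534, limma), and 1.13 without both CLP libraries of batch 2 (adjusted p = 0.0474). Tal1, a factor of stem and erythroid cells, was 0.94 lower in GMP than in LMPP (difference -0.94).

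The ligands of these receptors were mostly not found in the progenitors themselves. Csf2, Csf3, Il3, Epo, Thpo and Il11 were listed at 0 in all 12 libraries, Il5 reached at most 0.62 TPM, and Il6 at most 0.74 TPM. Of 17 ligand entries, 16 were matched to a gene ID and 3 passed the filter. In GMP against LMPP 0 rose and 2 fell: Clcf1, a ligand of the ciliary neurotrophic factor receptor that signals through gp130, averaged 0.948 ± 0.116 TPM in GMP against 10.3 ± 6.3 TPM in LMPP (SD, n = 4 each; difference -2.41, adjusted p = 0.0012, limma). Osm, oncostatin M, which also signals through gp130, averaged 1.38 ± 0.572 TPM in GMP against 4.38 ± 2.27 TPM in LMPP (difference -1.12, adjusted p = 0.0152, limma). In CLP against LMPP 0 of 3 were called, and in GMP against CLP 1 fell, Clcf1 (difference -2.16, adjusted p = 0.00247). The list's medians were -1.12, -0.34 and -0.29, the last turning to 0.07 without both CLP libraries of batch 2. In GMP against CLP 1 of the 3 also rose with median-ratio scaling and without both CLP libraries of batch 2.

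Other cytokine receptors of blood cells moved in both directions. Of 32, 26 were tested: 4 rose and 12 fell in GMP against LMPP, 1 rose and 5 fell in CLP against LMPP, and 6 rose and 10 fell in GMP against CLP, with list medians of -0.78, -0.23 and -0.33. The median in CLP against LMPP turned to 0.05 without both CLP libraries of batch 2, where 2 rose and 7 fell. Csf1r, the receptor of the macrophage factor M-CSF, averaged 25.8 ± 11 TPM in GMP, 6.01 ± 3.14 TPM in CLP and 7.92 ± 3.6 TPM in LMPP (SD, n = 4 each), and rose by 1.57 in GMP against LMPP (adjusted p = 0.0163, limma). Ifngr1, a chain of the interferon gamma receptor, rose by 1.62 in the same comparison (adjusted p = 5.99e-05), and Tnfrsf1a, a receptor of tumour necrosis factor, and Il11ra1, an IL-11 receptor chain, rose by 2.08 and 2.02 in GMP against CLP; without both CLP libraries of batch 2 Tnfrsf1a rose by 1.13 (adjusted p = 0.000346). Il1r1, an IL-1 receptor, was lower in GMP (difference -3.52, adjusted p = 0.000324, limma) and in CLP (difference -2.36, adjusted p = 0.0111) than in LMPP, the second at -1.08 without both CLP libraries of batch 2 (adjusted p = 0.0219). Il7r, Flt3 and Kit encode proteins that some of the gates select on, so their levels are not independent of the sort: Il7r averaged 0.205 ± 0.121 TPM in GMP, 93.8 ± 24.3 TPM in CLP and 8.12 ± 3 TPM in LMPP, and Flt3 3.17 ± 0.363 TPM in GMP, 77.6 ± 74.8 TPM in CLP and 123 ± 23.9 TPM in LMPP.

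Among kinases and STAT factors, all 17 were tested, with counts to be read beside the all-gene shares above. In GMP against LMPP 1 rose and 8 fell, in CLP against LMPP 0 rose and 0 fell, and in GMP against CLP 1 rose and 5 fell, with medians of -0.38, -0.28 and -0.32, beside -0.24, -0.17 and -0.09 for all genes. With median-ratio scaling 1 rose and 5 fell in GMP against LMPP, with a median of -0.13 beside -0.02 for all genes. The gene that rose was Fes, a myeloid tyrosine kinase, at 20.5 ± 2.45 TPM in GMP, 5.9 ± 1.98 TPM in CLP and 10.1 ± 2.73 TPM in LMPP (SD, n = 4 each). Its log2 difference was 0.98 in GMP against LMPP (adjusted p = 0.0137, limma) and 1.69 in GMP against CLP (adjusted p = 0.000572). Fyn, a Src-family kinase, had differences of -1.92 and -2.44 in these comparisons, Stat4, a factor used by IL-12, -1.25 in the first and Syk, a kinase of antigen receptors, -0.97 in the second. Jak2, the kinase that the beta chains and Epor use, had 9.34 to 20.92 TPM in GMP, 8.87 to 20.59 in CLP and 14.52 to 22.08 TPM in LMPP. Stat5a had 12.48 to 15.77 TPM in GMP, 9.88 to 13.88 in CLP and 12.91 to 20.27 TPM in LMPP. These genes overlapped between all types and were not among those called; they were picked for their role after their values were seen.

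Adaptors of receptor signalling were called in both directions. Of 17, all tested, 1 rose and 3 fell in GMP against LMPP, 1 rose and 0 fell in CLP against LMPP, and 0 rose and 3 fell in GMP against CLP, with medians of -0.15, 0.13 and -0.15, beside -0.24, -0.17 and -0.09 for all genes. The balance turned with the settings: with median-ratio scaling 3 rose and 1 fell in GMP against LMPP (median 0.09), and without both CLP libraries of batch 2, 1 rose and 2 fell in CLP against LMPP (median -0.14) and 3 rose and 2 fell in GMP against CLP (median 0.00). Pik3cd, a catalytic PI3-kinase subunit of leukocytes, averaged 16.6 ± 1.34 TPM in GMP, 28.9 ± 6.35 TPM in CLP and 13.6 ± 0.814 TPM in LMPP (SD, n = 4 each). It was higher in CLP than in LMPP by 1.02 (adjusted p = 0.00308, limma) and had a difference of -0.75 in GMP against CLP (adjusted p = 0.00553). In GMP against LMPP the GTPase gene Hras rose by 0.63 (adjusted p = 0.0436), a call lost without the haemoglobin-rich pair (0.64, adjusted p = 0.085), and Gab1 and Pik3r1, a docking protein and a PI3-kinase regulatory subunit, had differences of -1.10 and -0.62, of which that of Pik3r1 lost its call with median-ratio scaling (-0.36, adjusted p = 0.0562).

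Inhibitors of cytokine signalling that were called in a comparison with GMP were lower in GMP. Of 23, 21 were tested: 0 rose and 8 fell in GMP against LMPP, 4 rose and 2 fell in CLP against LMPP, and 0 rose and 7 fell in GMP against CLP, with medians of -0.56, 0.04 and -0.43, beside -0.24, -0.17 and -0.09 for all genes, of which 21.3% were called lower in GMP against LMPP and 13.9% in GMP against CLP. With median-ratio scaling 0 rose and 6 fell in GMP against LMPP, beside 13.5% of all genes called lower, and 0 rose and 7 fell in GMP against CLP, beside 12%. In CLP against LMPP the counts were less stable: 4 rose and 0 fell with median-ratio scaling, 1 rose and 0 fell without both CLP libraries of batch 2, and 2 rose and 1 fell without the haemoglobin-rich pair, where the median was -0.04. Socs2, an inhibitor induced by STAT5, was listed at 0.00 to 0.29 TPM in GMP, 11.77 to 31.81 in CLP and 0.16 to 3.47 TPM in LMPP. It rose by 3.20 in CLP against LMPP (adjusted p = 0.00017, limma) and its difference in GMP against CLP was -4.25 (adjusted p = 3.64e-06). Cish, of the same family, averaged 0.45 ± 0.11 TPM in GMP, 5.8 ± 3.42 TPM in CLP and 1.84 ± 0.445 TPM in LMPP, with 1.16 in CLP against LMPP (adjusted p = 0.0309, limma) and -2.12 in GMP against CLP (adjusted p = 0.00037). The signalling brake Dok2 and Socs5 had differences of -2.33 and -1.58 in GMP against LMPP, and Socs5 and Spry2, a brake on the Ras pathway, of -0.98 and -0.80 in CLP against LMPP. In that comparison Cish (1.02, adjusted p = 0.053), Socs5 (-0.64, adjusted p = 0.116) and Spry2 (-0.68, adjusted p = 0.17) lost their calls without both CLP libraries of batch 2, Socs5 and Spry2 with median-ratio scaling (-0.82 and -0.64, adjusted p = 0.0918 and 0.0771), and Socs5 without the haemoglobin-rich pair (-0.74, adjusted p = 0.0551). Socs3, the inhibitor that acts on Csf3r and gp130, was listed at 0.02 to 0.16 TPM in GMP, 0.64 to 1.11 in CLP and 0.91 to 3.41 TPM in LMPP, so GMP lay below the other types, and it did not pass the filter; it too was picked for its role after its values were seen.

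Of 15 transcripts known to rise on STAT signalling, all tested, 1 rose and 7 fell in GMP against LMPP, 2 rose and 3 fell in CLP against LMPP, and 1 rose and 7 fell in GMP against CLP, with medians of -0.99, -0.47 and -0.39. Without both CLP libraries of batch 2, 1 rose and 11 fell in GMP against LMPP, 1 rose and 2 fell in CLP against LMPP and 1 rose and 4 fell in GMP against CLP. Osm and Cish stand in this list and in one of those above and are counted in each. Id1, an inhibitor of helix-loop-helix factors, rose by 1.43 in GMP against LMPP (adjusted p = 0.00784, limma) and by 1.68 in GMP against CLP. Pim1, a survival kinase, averaged 5.33 ± 2.26 TPM in GMP against 21.7 ± 8.39 TPM in LMPP (SD, n = 4 each; difference -1.85, adjusted p = 0.000435, limma). Egr1 and Fos, immediate early genes, had differences of -2.33 and -2.43 in CLP against LMPP, and Egr1 -4.13 in GMP against LMPP; in CLP against LMPP Egr1 lost its call without both CLP libraries of batch 2 (-2.25, adjusted p = 0.064). Ccnd3, a D cyclin, averaged 30.7 ± 2.95 TPM in GMP, 211 ± 108 TPM in CLP and 47 ± 7.82 TPM in LMPP, and rose by 1.98 in CLP against LMPP (adjusted p = 0.00093, limma). It had 268.51 and 326.45 TPM in batch 2 and 167.38 and 83.08 TPM in batch 1 of CLP, and with the batch 2 pair of CLP left out its difference was 1.45 (adjusted p = 0.00765). Of 2 proteases that shed receptors such as Il6ra from the cell surface, Adam10 and Adam17, 0 were called in GMP against LMPP or GMP against CLP, and in CLP against LMPP 0 rose and 1 fell, Adam17 (difference -0.55, adjusted p = 0.0352, limma), a call lost with median-ratio scaling (-0.39, adjusted p = 0.0855). In GMP against CLP 1 of the 2 rose in each of the 3 repeats. Their median log2 difference was -0.17 in GMP against LMPP, -0.45 in CLP against LMPP and 0.28 in GMP against CLP; the first turned to 0.09 with median-ratio scaling.

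Among the tested receptors themselves, log2 levels over the 12 libraries were most alike for Csf2rb and Il6ra (Pearson r = 0.848), Csf2ra and Csf2rb (0.845) and Csf3r and Il6ra (0.825). Il3ra and Il6st had r between -0.308 and 0.641 with all others, and Csf2rb2 with Csf2rb had 0.402. These coefficients describe 12 libraries that share types and batches. Over the 9 libraries left without both CLP libraries of batch 2 and LMPP batch 2 replicate 1, the first 3 were 0.833, 0.77 and 0.87, while those of Il3ra and Il6st with others were between -0.689 and 0.693. The genes most like each receptor over the same 12 libraries were Myo1f (0.95), Stom (0.938) and Tcn2 (0.937) for Csf2ra, and Sort1 (0.976), Abcc4 (0.969) and Rassf4 (0.966) for Csf2rb. For Il6ra they were Gpr160 (0.985), Tnfrsf1a (0.981) and Adap1 (0.972), and for Csf3r Stxbp5 (0.965), Galc (0.956) and Peli2 (0.953). Gpr160 averaged 54.7 TPM in GMP, 7.98 TPM in CLP and 22.3 TPM in LMPP, the same order as Il6ra. For Il3ra they were Gm5148 (0.97), the pseudogene Gm9701 (0.968) and the ribosomal protein gene Rpl22 (0.965), for Il6st Mpeg1 (0.904), Ppfia4 (0.896) and Abhd15 (0.89), and for Csf2rb2 Cd53 (0.9), Gm15326 (0.869) and Psap (0.864). Over the same 9 libraries these coefficients were between 0.843 and 0.968. The genes were chosen by their correlation over the 12 libraries, which include these 9, so this is no independent check.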

How the data were processed

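The authors deposited TPM per Ensembl gene ID, and 12 of the 29 columns were matched to samples by name; the other 17 were used in no step. Per the submitters' processing notes, Bowtie2 2.2.0, RSEM 1.2.12 and edgeR 3.10.0 were used with mm10; the sources used here give neither order, settings nor use of strand. TPM sums to 999999 to 1000001 in each library and keeps no depth, so a value of 0 is described as listed at 0. Mitochondrial and rRNA genes took 11.85 to 31.42% of TPM, and 11064 to 12987 genes reached 1 TPM per library.

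Symbols and coordinates came from GENCODE M21, which gave 37607 IDs a symbol, and promoters from RefSeq. Genes at 1 TPM or more in 4 or more libraries (12718, 193 without a symbol) were fitted on log2(TPM + 1) with limma 3.58.1 (R 4.3.3) on all 12 libraries, with type and batch terms (8 residual degrees of freedom) and a variance trend. The interaction of type with batch had 6 residual degrees of freedom. P-values were two-sided and adjusted by Benjamini-Hochberg over all tested genes. Alternatives were 2 other pseudocounts, 2 filters, median-ratio and quantile scaling, no batch term, each batch alone, a replicate block, and libraries left out.

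The receptors, the 8 pathway lists (138 entries, 137 matched) and the 13 marker lists were chosen with earlier results of these data known. Named pathway genes were, in each comparison and list, the 2 called genes with the largest difference in each direction; exceptions are marked in the text, and 2 genes that the rule named are not reported here. Like genes were the 3 tested genes with the highest Pearson correlation with a receptor. Replicate numbers paired libraries by number only: deviations of same-numbered libraries from their type and batch means correlated at -0.106 to 0.169.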

Additional observations from a re-analysis of the deposited data

Results flagged for a closer look

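The level of each receptor in each type was checked for a library far from the other 3, and 5 of 27 groups of 4 libraries had one. In 2 of these, Il5ra and Epor in CLP, the other 3 libraries were listed at 0, so that any value above 0 stands apart by construction; in the other 25 groups 3 had one, where chance flags about 1 in 20. Epor had 2.73 TPM in CLP batch 2 replicate 1 and 5.58 TPM in LMPP batch 2 replicate 1, far above the other libraries of their types, and these were the haemoglobin-rich pair. Il5ra stood at 0.65 TPM in GMP batch 2 replicate 1 and at 0.21 TPM in CLP batch 2 replicate 1, where the other 3 CLP libraries were listed at 0. Il6ra reached 13.87 TPM in LMPP batch 2 replicate 3, while the remaining LMPP libraries had 9.79 to 10.15 TPM.

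The difference of Il6st between types itself differed between batches, by 3.26 (log2, batch 2 minus batch 1) for GMP against CLP and by -2.38 for CLP against LMPP. Both were called by limma, and both held in each of the 12 fits without a library, at 2.97 to 3.54 and -2.66 to -2.09. Leaving out CLP batch 2 replicate 1 leaves 1 library of CLP in that batch, assumed to vary like the rest. In CLP against LMPP, the interaction of Csf2ra, Csf2rb, Csf2rb2 and Il6ra then moved from -1.40, -0.84, -1.95 and -1.29 to -1.99, -1.74, -2.24 and -2.20. In GMP against CLP, that of Csf2rb and Il6ra moved from 0.87 and 1.23 to 1.77 and 2.14. These receptors were picked after their values in that fit were seen.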

How the results depend on the processing

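Depth is unknown, so the precision of low values, such as those of Il5ra, Epor and Il3ra in batch 2, cannot be given. With 2 libraries per type and batch, fits within a batch rest on few libraries. Of the values of single receptors under alternative settings, 551 kept the direction and the side of the threshold. At the same direction 21 lost a call and 13 gained one, and 32 turned the sign. All sign changes were for differences that were not called before the setting was changed. A turned value could itself be called, as for Il6st in batch 2 alone in CLP against LMPP and in GMP against CLP.

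The count of receptors called in GMP against LMPP was 2, and 0 in batch 2 alone and 1 with no filter, with 0 to 3 when a library was left out. In CLP against LMPP the count was 1, with 1 to 2 when a library was left out. It was 2 in batch 1 alone, with mitochondrial and rRNA genes removed, and without both CLP libraries of batch 2. In batch 1 alone and without those CLP libraries the added call was Il6st, higher in CLP. In batch 2 alone the 1 call was Il6st, lower in CLP, and not Csf3r. In GMP against CLP the count was 5, and 2 in batch 2 alone, with 5 or fewer elsewhere. Those 2 were Csf2rb and Il6st, and Il6st is not among the 5. In batch 1 alone Il3ra lost its call and Il6st was called lower in GMP. Without both CLP libraries of batch 2, Csf2ra and Il3ra lost theirs and Il6st was again called lower in GMP. For the interaction with batch the count was 1, with 1 to 5 when a library was left out, a check chosen after seeing the data. The replicate block gave 2, 1 and 5 called receptors, as without it, and leaving out the haemoglobin-rich pair gave 2, 1 and 5 too; under the block Csf2ra turned to 0.03 in CLP against LMPP and Il6st to 0.14 in GMP against LMPP.

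Scaling moved the median of all genes in GMP against LMPP to -0.02 (median ratios) and 0.03 (quantiles), against -0.24, and in CLP against LMPP to -0.02 and 0.00, against -0.17. The called receptors kept their direction and calls under both scalings. With median ratios Csf2rb2 turned to 0.05 in GMP against CLP, and Csf3r to 0.09 and Il6st to 0.16 in GMP against LMPP. With quantiles Csf2ra turned to 0.08 in CLP against LMPP, Csf2rb2 to 0.09 in GMP against CLP and Il6st to 0.04 in GMP against LMPP. With mitochondrial and rRNA genes removed Il6st turned to -0.04 in CLP against LMPP.

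Other signs turned with the libraries used. Csf2ra in CLP against LMPP was 0.55 in batch 1 alone, 0.25 without both CLP libraries of batch 2, and -0.38 to 0.17 when a library was left out, positive at 0.17 and 0.11. Csf2rb2 in CLP against LMPP was -0.60 in batch 2 alone, and -0.08 to 0.72 when a library was left out; in GMP against CLP it was 0.90 in batch 2 alone, and -0.36 to 0.45 when a library was left out, positive at 0.45, 0.12 and 0.07. Il6st was -1.16 in CLP against LMPP, 1.49 in GMP against CLP and 0.34 in GMP against LMPP in batch 2 alone. With a library left out, Il6st was -0.35 to 0.49 in CLP against LMPP, negative at -0.29, -0.35 and -0.13, and -0.59 to 0.25 in GMP against CLP, positive at 0.19, 0.25, 0.12 and 0.13. In GMP against LMPP it was -0.37 to 0.16, positive at 0.15, 0.16 and 0.07. The cause was not tested.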
